A study of Homo sapiens with 32 samples.

Results

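The start sites of TRPM8 were taken from 2 deposited tables of capped RNA 5′ ends, as every row on the plus strand of chromosome 2 whose name lay in a window of 106001 bp over the gene (build hg19). The rule took 1 row of the 19534 in the table of the R1881 time course and 1 row of the 13294 in the table of LNCaP and BicR cells. The first is a cluster of 216 bp at chr2:234862237-234862452. The second is listed by the single position 234862316, which lies inside that cluster, 79 bp from its start. The median width of rows in the second table is 1 bp. Its site at 234777031, for example, is a cluster at 234776951-234777101 in the time course. Whether counts of the second table cover only the listed base or a region around it was not determined. The position was selected on measured values of these data: it stood out with bicalutamide against ethanol in BicR cells. Every comparison that uses BicR ethanol or BicR bicalutamide libraries is therefore given as a description, with no test.

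TRPM8 is a cation channel that opens in the cold and with menthol, and sensory neurons use it to sense cooling. It was first cloned from prostate. Androgens act through the androgen receptor, a transcription factor that binds DNA once it holds its ligand. Bicalutamide occupies the same receptor and is used as an antagonist.

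Cap analysis of gene expression (CAGE) reads the 5′ ends of capped RNAs, so each tag marks a start of transcription. LNCaP is a human prostate cancer line that responds to androgen. BicR is also a prostate cancer line, and what its name abbreviates is not stated in the labels. All cells spent 3 days in medium with charcoal-treated serum, which is poor in steroids, before hormone was added. In the time course, LNCaP cells received R1881, a synthetic androgen, for 0, 3, 6, 12, 18, 48 or 72 h, with 2 libraries per time and no vehicle after 0 h. Each sample's own label gives 1 nM R1881 and the shared protocol gives 10 nM, so the dose is uncertain. In the other experiment each line was given 1 of 4 treatments: the solvent ethanol, the natural androgen dihydrotestosterone (DHT) at 10 nM, bicalutamide at 1 µM, or both agents together. There was 1 library per line, treatment and time (6 h and 24 h), and 1 per line before treatment. Nothing in the labels says that replicates came from separate cultures, so p-values measure only the spread between these libraries. The tables name no genes, so the lines were not checked against marker genes and other genes of the pathway were not followed by name. Other sites are given by position only, were not assigned to genes, and may belong to such genes.

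RefSeq lists 6 starts of TRPM8, spread over 62776 bp in the build GRCh38.p14. Which of them, if any, matches the deposited rows in hg19 was not determined. Start 4 lies 36380 bp after the first, and the deposited position lies 38316 bp into the hg19 window. How far that window begins before the first start was not determined. If it begins at or before that start, and distances are alike in both builds, the position lies at most 38316 bp after it. Starts 5 and 6 lie further away, at 59055 and 62776 bp after the first. The 250 bases before 2 of these starts are shown because they were the ones that held a searched motif, in capitals. Neither is known to be the start measured here, and the windows of starts 2, 3, 4 and 5 held no searched motif. In the window of the first start (chr2:233917123-233917422, plus strand) the capitals mark TATAAA, and in that of the sixth (chr2:233979899-233980198, plus strand) they mark AGAACA, the half-site of the androgen response element read on the other strand.
TRPM8 start 1: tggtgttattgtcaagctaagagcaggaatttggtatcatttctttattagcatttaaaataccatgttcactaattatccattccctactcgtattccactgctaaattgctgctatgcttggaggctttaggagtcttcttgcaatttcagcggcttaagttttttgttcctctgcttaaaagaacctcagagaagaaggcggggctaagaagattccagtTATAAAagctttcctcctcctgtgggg
TRPM8 start 6: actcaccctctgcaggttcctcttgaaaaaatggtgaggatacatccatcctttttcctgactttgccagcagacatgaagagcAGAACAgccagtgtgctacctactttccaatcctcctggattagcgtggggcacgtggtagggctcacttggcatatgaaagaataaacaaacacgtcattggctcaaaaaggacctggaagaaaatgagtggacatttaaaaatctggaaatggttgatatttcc
Both strands were searched. TATAAA or its reverse TTTATA was found in 1 of the 6 TRPM8 windows and in 11.5% of 35116 RefSeq windows of the same length. The half-site (TGTTCT or AGAACA) was found in 1 of 6, against 14.8% of all windows. The full element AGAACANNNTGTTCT, which contains both half-sites, was found in 0 of the 6 and in 1 of the 35116 windows. A match is a description of letters in these windows and not a binding site.

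Tag numbers set the precision. The time course libraries held 128463 to 3837493 tags in the listed rows, which were 80.3 to 90.1% of the library totals implied by the RPM values. All replicate 1 libraries (up to 1075743 tags) were shallower than all replicate 2 libraries (from 1357958 tags). The LNCaP and BicR libraries held 4139807 to 7753336 tags in the listed rows, 75.6 to 86.1% of their implied totals. Levels are given as the deposited RPM, tag counts scaled by the authors to a common library total. In all, 227 tags fell in the TRPM8 cluster over 14 libraries and 1289 at the TRPM8 position over 18 libraries. Intervals of ratios between libraries are exact 95% intervals that cover counting error only, and intervals of log2 changes are 95% intervals from the standard error of edgeR's fit. In these bulk samples fewer expressing cells and less RNA per cell cannot be told apart. Levels were not compared between the tables, which were normalized separately. One lists the gene as a cluster and the other by a single position, whose counted region was not determined.

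In LNCaP cells the TRPM8 cluster was low before R1881 and higher in both replicates at every later time. It was highest at 12 h in both replicates. Replicate 1 gave 3.96 RPM at 0 h (5 tags), and then, in order of time, 25.02, 57.0, 58.5, 25.9, 29.0 and 22.3 (4 to 22 tags). Replicate 2 gave 0.551 RPM at 0 h (2 tags), and then 13.95, 14.6, 15.7, 8.69, 2.42 and 1.61 (7 to 40 tags). Of the 12 libraries after 0 h, 10 lay above the higher 0 h library, and the other two were replicate 2 at 48 h and 72 h. Replicate 1 was the higher one at 7 of 7 times, by 1.79 to 13.8 times. The courses differed as well: from 3 h to 12 h replicate 1 went from 25.02 to 58.5 RPM and replicate 2 from 13.95 to 15.7, and from 18 h to 48 h replicate 1 went from 25.9 to 29.0 and replicate 2 from 8.69 to 2.42. Replicate 1 libraries were also the shallower ones, and the part of depth in this difference was not tested. The mean was 2.25 ± 2.41 RPM before R1881 and, in order of time after it, 19.5 ± 7.82, 35.8 ± 29.99, 37.1 ± 30.2, 17.3 ± 12.2, 15.7 ± 18.8 and 12.0 ± 14.6 (SD, n = 2).

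**Figure D1:**
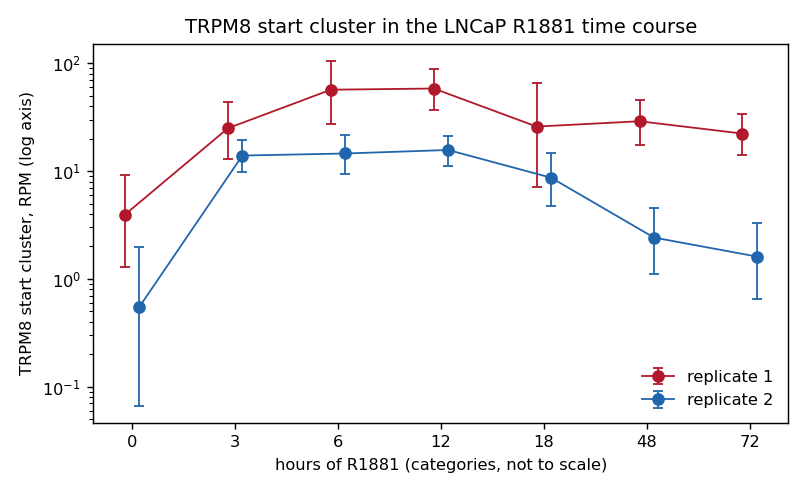
RPM of the TRPM8 cluster (log axis) at each time of R1881 in LNCaP, with 1 line per replicate and 95% counting intervals as bars. Replicate 1 lies above replicate 2 at 7 of 7 times, and both are lowest at 0 h.

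Within a replicate the ratios to 0 h were large, with wide intervals. At 12 h the cluster stood 14.8 times above 0 h in replicate 1 (5.46 to 49.96) and 28.5 times in replicate 2 (7.40 to 244). At 3 h the ratios were 6.32 (2.07 to 22.9) and 25.3 (6.52 to 217). At 6 h they were 14.4 (4.49 to 53.7) and 26.5 (6.599 to 231), and at 18 h 6.55 (1.30 to 30.4) and 15.8 (3.62 to 143). At 48 h they were 7.34 (2.65 to 25.2) and 4.39 (0.909 to 41.8). At 72 h they were 5.64 (2.08 to 19.1) and 2.93 (0.557 to 28.9), and the intervals of replicate 2 at 48 h and 72 h include 1. Against 12 h, the level at 48 h was 0.497 times as high in replicate 1 (0.254 to 0.962) and 0.154 times in replicate 2 (0.0657 to 0.322). The level at 72 h was 0.382 times as high in replicate 1 (0.202 to 0.723) and 0.103 times in replicate 2 (0.0387 to 0.231). The 12 h library was taken as the reference because it was the highest of each replicate, so these ratios describe the course and test nothing.

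Over all sites, edgeR's quasi-likelihood test without a replicate term passed the TRPM8 cluster at 0 of 6 times (adjusted p from 0.231 to 1). The log2 changes in order of time were 3.31, 4.09, 4.22, 2.97, 2.90 and 2.54, with SEs of 1.40 to 1.54. By size these ranked 100th, 143rd, 128th, 648th, 334th and 436th among the rises of all sites tested. This test called few sites of any kind among 15999: 0% after 3 h, 0% after 6 h, 0.231% after 12 h, 0.988% after 18 h, 1.89% after 48 h and 2.5% after 72 h. At 3 h and 6 h, where edgeR called 0 sites, 269 and 2449 sites fell below 0.05 before adjustment. DESeq2 called 5 sites at 3 h and 75 at 6 h. The 6 times tested jointly gave an adjusted p of 0.523, with 1.6% of sites called.

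The call changed with the replicate block, a term for the replicate number. Same-numbered libraries deviated together across sites, but all replicate 1 libraries were also the shallower ones. Whether the numbers pair the libraries apart from depth was not tested. With the block the cluster rose at 5 of 6 times by edgeR's test. The log2 change was 3.62 after 3 h (SE 0.710, adjusted p = 0.0243), 4.25 after 6 h (SE 0.729, adjusted p = 0.00331) and 4.20 after 12 h (SE 0.694, adjusted p = 0.00120). It was 3.40 after 18 h (SE 0.807, adjusted p = 0.00958) and 2.53 after 48 h (SE 0.752, adjusted p = 0.0370). At 72 h the change was 2.13 (SE 0.752, adjusted p = 0.0681) and did not pass. The joint test passed with the block (adjusted p = 0.00173). The block raised the share of sites called to 0.288, 6.61, 1.98, 13, 8.54 and 12.2% in order of time, and to 18.1% for the joint test.

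**Figure D2:**
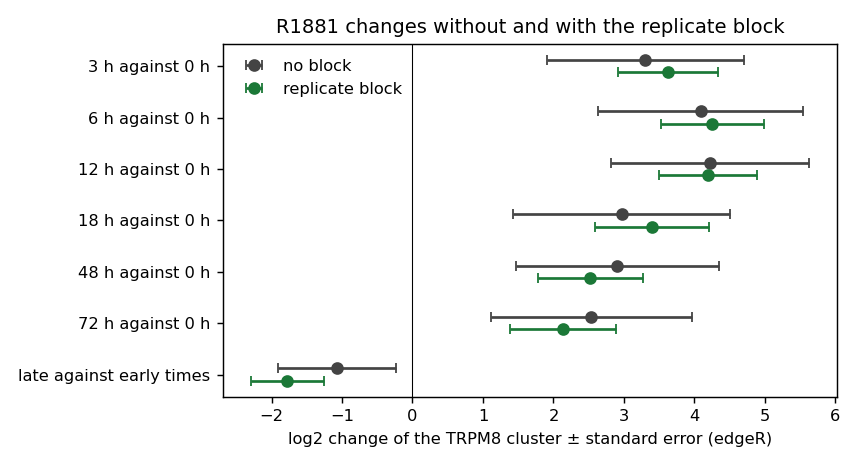
log2 change of the TRPM8 cluster (horizontal axis, edgeR, bars are standard errors) for each R1881 time against 0 h and for late against early times, without and with the replicate block. At 12 h the standard error is 1.40 without the block and 0.694 with it.

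Late times were compared with early ones without the 0 h libraries. The 4 libraries of 3 h and 6 h averaged 27.6 ± 20.2 RPM and the 4 of 48 h and 72 h averaged 13.8 ± 13.9 (SD, n = 4), and the groups overlapped. The log2 difference was -1.08 (SE 0.835, edgeR adjusted p = 0.481, with 6.32% of 11193 sites called). With the replicate block it was -1.78 (SE 0.516, adjusted p = 0.0485, with 8.32% called). The 4 libraries at 6 h and 18 h stood apart from the rest of the time course: their median correlation with the others was 0.631 to 0.686, against 0.744 to 0.816. The comparison of late with early times was not repeated without them.

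At the TRPM8 position, DHT gave the highest LNCaP levels, and bicalutamide alone differed from ethanol by less than counting error. LNCaP cells gave 0.374 RPM before treatment, 0.297 with ethanol at 6 h and 0.632 at 24 h (2 to 5 tags each). With DHT they gave 5.43 RPM at 6 h and 7.55 at 24 h (50 and 61 tags). With DHT and bicalutamide together they gave 4.71 and 3.78 RPM. Both levels lie between those of ethanol and those of DHT alone. Bicalutamide alone gave 0.554 and 0.729 RPM (5 and 6 tags).

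DHT over ethanol in LNCaP was 18.3 at 6 h (4.81 to 155) and 11.9 at 24 h (4.85 to 38.1). The fitted log2 change was 3.76 (SE 0.697, 95% interval 2.25 to 5.28) and did not pass edgeR's test (adjusted p = 0.0706), although it was the 8th largest rise of 13214 sites. Few sites passed that test (0.129%). Without the 24 h against 6 h term edgeR's adjusted p rose to 0.125, with 5 of 13214 sites called. DESeq2 called the position (log2 change 3.82, adjusted p = 8.07e-05, with 0.409% of sites called). So did edgeR when the BicR combination library of 6 h was left out (3.77, SE 0.537, adjusted p = 0.00788, with 0.469% called). That library stood apart from the other BicR libraries (median correlation 0.933, against 0.951 to 0.965), and all comparisons of this table share 1 estimate of the spread.

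Bicalutamide alone over ethanol in LNCaP was 1.87 at 6 h (0.306 to 19.6) and 1.15 at 24 h (0.293 to 4.78). The log2 change was 0.47 (95% interval -1.88 to 2.81, edgeR adjusted p = 1.00, with 0.00757% of sites called). The interval leaves room for a several-fold change either way at this depth. The combination against DHT gave a log2 change of -0.58 (-1.59 to 0.44, adjusted p = 1). edgeR and DESeq2 called 0 sites there (0%), and 243 sites fell below 0.05 before adjustment. By counting error alone the combination was 0.501 times DHT at 24 h (0.311 to 0.792) and 0.867 times at 6 h (0.532 to 1.39). The combination against ethanol gave 3.19 (SE 0.763, edgeR adjusted p = 0.401, with 0.00757% called). DESeq2 passed that change (3.27, adjusted p = 0.00689, with 0.144% called).

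In BicR cells the same position was high with DHT, with bicalutamide alone and with both. It stood at 2.37 RPM before treatment, and at 2.47 and 1.20 with ethanol at 6 h and 24 h. With DHT it gave 22.1 and 35.0 RPM (152 and 252 tags). Bicalutamide alone gave 20.3 and 20.2 RPM (175 and 174 tags). DHT with bicalutamide gave 10.02 RPM at 6 h (50 tags) and 30.01 at 24 h (248 tags). The 6 libraries with either agent all lay above the 3 without, and the lowest of them was the combination at 6 h.

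**Figure D3:**
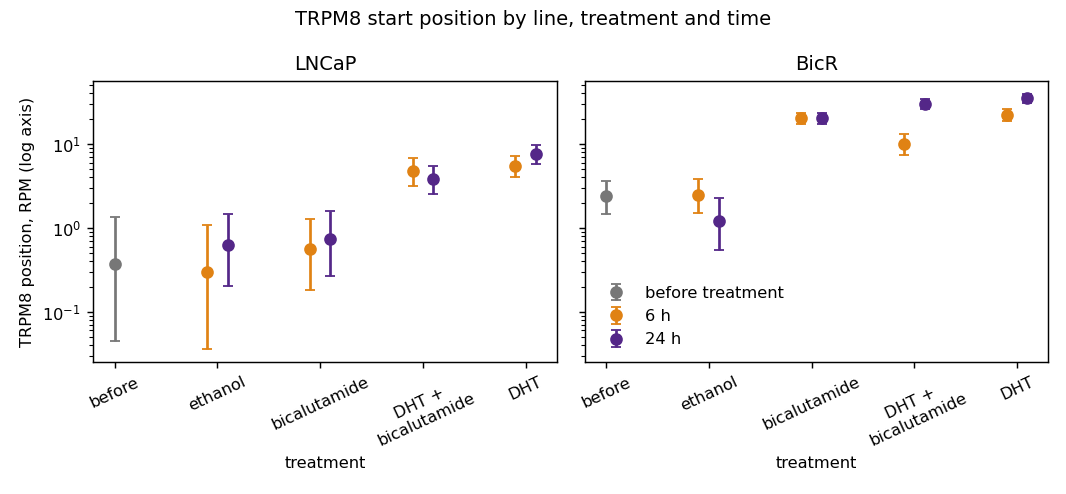
RPM at the TRPM8 position (log axis) by treatment in LNCaP (left) and BicR (right), 1 point per library with its 95% counting interval, coloured by time. Bicalutamide alone lies near ethanol in LNCaP (0.554 and 0.729 RPM) and near DHT in BicR (20.3 and 20.2 RPM).

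As a description of the values that chose the position, bicalutamide over ethanol in BicR was 8.22 at 6 h (5.11 to 13.97) and 16.8 at 24 h (8.65 to 37.3). DHT over ethanol was 8.94 (5.53 to 15.3) and 29.0 (15.1 to 64.2), and the combination over ethanol was 4.06 (2.35 to 7.29) and 24.9 (12.9 to 55.1). The fitted log2 changes were 3.52 for bicalutamide (SE 0.477) and 3.88 for DHT (SE 0.472). DHT over bicalutamide was 1.09 at 6 h (0.870 to 1.36) and 1.73 at 24 h (1.42 to 2.11). The DHT response in BicR minus that in LNCaP was 0.11 on the log2 scale (SE 1.55, interval -3.25 to 3.48). The change is near 0, where this SE is unsteady, and DESeq2 gave 0.026 with an SE of 0.883. Both are too wide to order the lines.

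Adding bicalutamide to DHT in BicR did not pass the test. The log2 change was -0.49 (SE 0.353, interval -1.26 to 0.28, edgeR adjusted p = 0.739, with 0.144% of sites called). By counting error alone the combination was 0.454 times DHT at 6 h (0.323 to 0.629) and 0.858 times at 24 h (0.717 to 1.03). Without the 6 h library that stands apart the change turned to 0.044 (adjusted p = 1). The level at 24 h over that at 6 h was 2.99 for the combination (2.20 to 4.14), with that library as its 6 h value. It was 1.58 for DHT alone (1.29 to 1.95) and 0.998 for bicalutamide alone (0.804 to 1.24).

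**Figure D4:**
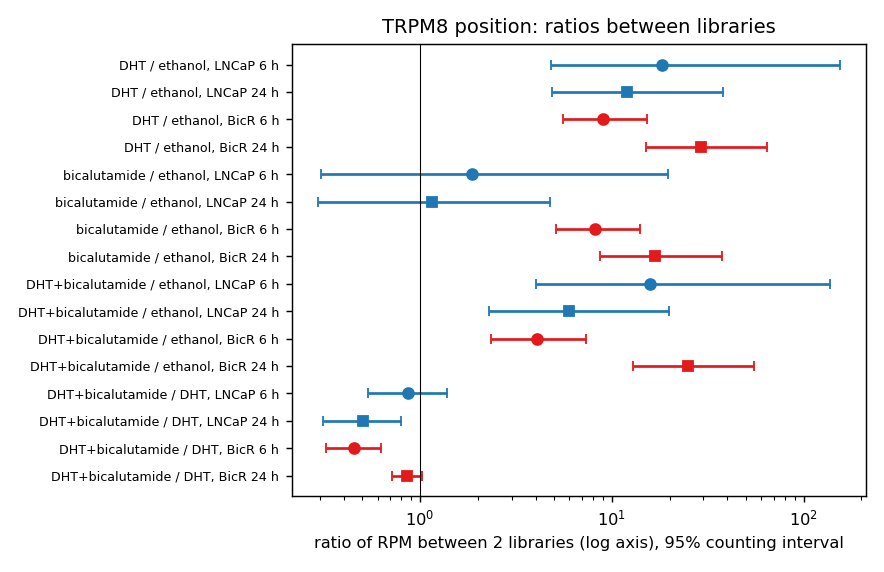
Ratios of RPM at the TRPM8 position between 2 libraries (log axis, bars are 95% counting intervals), LNCaP in blue, BicR in red, circles for 6 h and squares for 24 h. Bicalutamide over ethanol is 1.87 and 1.15 in LNCaP, with intervals that include 1, and 8.22 and 16.8 in BicR.

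At each treatment and time the BicR library was above the LNCaP library, though with ethanol at 24 h the interval of the ratio includes 1. With DHT the ratio was 4.06 at 6 h (2.93 to 5.71) and 4.63 at 24 h (3.49 to 6.24). The log2 difference was 2.01 (SE 0.471, interval 0.98 to 3.03, edgeR adjusted p = 0.0211, with 11% of sites called). Every row of this table reached at least 10.0 RPM in some library, and LNCaP reached no more than 7.55 RPM here, so the row is listed only through BicR and had to be higher there. The p is therefore no independent support. It also rested on single libraries: the adjusted p was 0.346 without LNCaP DHT at 6 h, 0.133 without BicR DHT at 6 h and 0.0634 without BicR DHT at 24 h. With ethanol the ratios were 8.32 (2.01 to 73.7) and 1.91 (0.574 to 7.24), with bicalutamide 36.6 (15.4 to 114) and 27.8 (12.5 to 76.7), and with the combination 2.13 (1.33 to 3.47) and 7.93 (5.39 to 12.1). Before treatment the ratio was 6.33 (1.54 to 55.9). Sites on chromosome 2 were shifted as well: with DHT the median log2 difference was 0.23 over 849 sites, 611 of them higher in BicR, and 6131 of 12364 sites elsewhere were higher. The part of this shift in the TRPM8 difference was not tested. The 24 h libraries of LNCaP did not differ from those of 6 h at the position beyond the spread (log2 change 0.19, SE 0.424, adjusted p = 0.872, with 0.991% of sites called).

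The closest row of the tables lay 85285 bp from the TRPM8 position. Those at lower coordinates were on the minus strand, at 234777031 and 234763180, and the nearest at higher coordinates was at 235860660. None of these passed edgeR's test with DHT in LNCaP. With DHT in LNCaP their log2 changes were -0.10, -0.34 and -0.13, against 3.76 for TRPM8. In the late against early comparison of R1881 the site at 234763180 fell by 3.67 on the log2 scale (SE 0.639, edgeR adjusted p = 0.00545).

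By the Pearson correlation of log2(RPM + 1) over the 18 libraries, the site most like the TRPM8 position was at 51376694 on the plus strand of chromosome 19 (r = 0.974). Within lines r was 0.962 in LNCaP and 0.988 in BicR (9 libraries each). Of 10571 rows compared, 40 had r above 0.9, and libraries share depth and treatment, so this is a description. The chromosome 19 site ranged from 32.2 RPM (LNCaP, ethanol at 24 h) to 1505 (BicR, combination at 24 h). With bicalutamide alone it gave 63.9 and 39.9 RPM in LNCaP and 748 and 811 in BicR, against 40.5 and 32.2 (LNCaP) and 152 and 138 (BicR) with ethanol. The next was at 84873952 on the plus strand of chromosome 1 (r = 0.969). In the time course the most alike cluster was on the minus strand of chromosome 21, at 28216470-28217774 (r = 0.9004 over 14 libraries, 0.836 within replicate 1 and 0.839 within replicate 2), followed by one on the plus strand of chromosome 2 at 11696325-11696812 (r = 0.880, 0.615 within replicate 1 and 0.993 within replicate 2). The values over 14 libraries include the difference in level between the replicates.

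**Figure D5:**
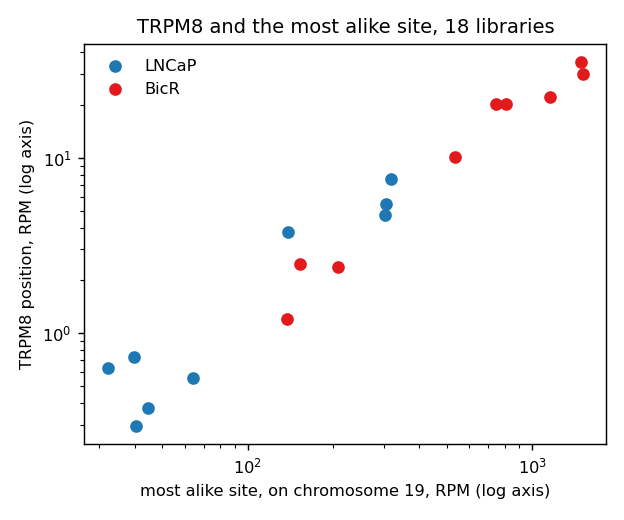
RPM of the TRPM8 position (vertical, log axis) against the chromosome 19 site at 51376694 (horizontal, log axis) in 18 libraries, LNCaP in blue and BicR in red, 1 point per library. The correlation of log2(RPM + 1) is 0.974.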

How the data were processed

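Capped 5′ ends of total RNA were read on a HeliScope sequencer, per the labels' protocols. Per the file headers, the deposited tables give raw tag counts per site and RPM values normalized by the authors (build hg19, per the submitters' processing notes). The aligner and cluster caller are not given in the sources used here. The members and lists were chosen with earlier results of these data known. Tests were run on the counts in R 4.3.3 with edgeR 4.0.16 (TMM, quasi-likelihood F test, filterByExpr with a minimum count of 10) over all sites, with Benjamini-Hochberg adjustment and a threshold of 0.05. For LNCaP and BicR cells, the 16 treated libraries were fitted with a coefficient per line and treatment and a 24 h term per line, so 6 h and 24 h stand in for replicates. DESeq2 1.42.0, other filters and scalings, left-out libraries and the replicate block were alternatives. Same-numbered libraries deviated together in 21 of 21 pairs of times (r 0.175 to 0.646, median 0.384, 9911 sites). The numbers also separate shallow from deep libraries, so this does not tell pairing from depth, and the labels do not say what they stand for. Blocked values stand beside the results they change (12 h of R1881, log2 change 4.20). Named sites were every member and, for likeness, the 2 most correlated rows with a mean of at least 10 RPM. Recovery of known changes was tested on simulated data for 3 of the comparisons.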

Additional observations from a re-analysis of the deposited data

How the results depend on the processing

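With the replicate block the log2 changes were 3.62, 4.25, 4.20, 3.40 and 2.53 at 3, 6, 12, 18 and 48 h of R1881, -1.78 for late against early times and an adjusted p of 0.00173 jointly, all past the threshold, and it changed no other call. DESeq2 passed DHT (3.82) and the combination (3.27) against ethanol in LNCaP. Without the BicR combination at 6 h, DHT in LNCaP passed (3.77), the combination against DHT in BicR turned to 0.044 and 24 h against 6 h in BicR moved to 0.039. RLE scaling, other filters, no time term, leaving out the 4 shallowest libraries and leaving out replicate 2 at 6 h and 18 h changed no call where they were run. None of these was run with the block. The last 2 of them were run only on the R1881 times against 0 h, where the cluster had no call to lose without the block.

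Libraries were left out only in fits without the replicate block, so the R1881 calls made with the block were not retested this way. Leaving out 1 library at a time, the log2 changes ran from 2.13 to 4.82 at 3 h of R1881, 2.89 to 5.57 at 6 h, 3.05 to 5.74 at 12 h, 1.79 to 4.47 at 18 h, 0.55 to 4.43 at 48 h, 0.056 to 4.07 at 72 h and -1.75 to -0.58 late against early. The joint adjusted p ran from 0.330 to 0.853. DHT against ethanol ran from 3.43 to 4.34 in LNCaP and 3.10 to 4.84 in BicR, and their difference from -0.68 to 1.06. Bicalutamide against ethanol ran from 0.13 to 1.03 in LNCaP and 2.75 to 4.49 in BicR. The combination against DHT ran from -1.01 to -0.13 in LNCaP and -1.42 to 0.044 in BicR, and against ethanol in LNCaP from 2.78 to 3.76. BicR against LNCaP ran from 1.63 to 2.24 with DHT and 0.85 to 2.60 with ethanol. The 24 h against 6 h change ran from -0.063 to 0.50 in LNCaP and 0.039 to 0.74 in BicR. The causes were not tested.

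A minimum count of 30 dropped the cluster from the late against early comparison, DESeq2 was not run on the joint test and gave no adjusted p for 24 h against 6 h in LNCaP, and tag shares among sites had no meaning with 1 site per table. Depth limits the 0 h and ethanol levels, which rest on 2 to 20 tags.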
